A study of Mus musculus with 24 samples.

Results

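The genes described here encode the machinery that copies DNA and the enzymes that supply its nucleotides. The list holds 46 genes, and 45 of them had an array probe set annotated to that gene alone. The exception was Chaf1a, which is not analysed here. The list leaves out the MCM helicase genes, which are given further on for comparison. Of the 11597 genes measured, these 45 are the members. Where a gene had several such probe sets, the probe set with the highest mean signal stood for it. All 45 passed the filter on low signals.

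The values come from 24 Affymetrix MOE430A arrays of mouse lung, in 8 groups of 3 young adult male mice. The groups were Tnfr-/- mice in filtered air, Tnfr-/- mice kept in ozone (O3) at 0.3 ppm for 24, 48 or 72 h, and Tnfr+/+ mice under the same 4 conditions. Tnfr-/- mice lack both receptors for tumor necrosis factor (Tnfrsf1a and Tnfrsf1b) in all cells and not in the lung alone, and Tnfr+/+ mice were of the strain C57BL/6J. Exposure was continuous, RNA was taken from lung tissue of each mouse at its end, and each array held 1 mouse. The study asked how O3 changes lung transcripts over time and how far the receptors bear on that.

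Replication starts at origins, where the origin recognition complex (the Orc genes), Cdc6 and Cdt1 load the MCM helicase, and where Cdc7 with Dbf4, Cdc45 and the GINS complex switch it on. Primase and polymerase alpha lay down primers, replication factor C (the Rfc genes) loads the Pcna clamp, and polymerases delta and epsilon extend. Fen1 and Lig1 trim and join the lagging strand, and replication protein A (the Rpa genes) covers single-stranded DNA. Ribonucleotide reductase (Rrm1, Rrm2), thymidine kinase (Tk1), thymidylate synthase (Tyms) and dUTPase (Dut) feed the nucleotide pool. Many of these genes are transcribed at entry into the DNA synthesis phase under E2F factors. Few cells of the resting adult lung divide, and epithelial cells and macrophages can divide after injury.

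Signal is the deposited MAS5 intensity after quantile normalization over the 24 arrays, with no unit, and it can be set against itself across groups but not against that of another gene. A log2 fold change is a difference of group means of log2 signal, given ± its standard error (SE) with 3 mice in each group. A member is called at an adjusted p under 0.05 in 1 limma fit over all 20537 probe sets kept. The arrays had median signals between 213 and 247. Tnfrsf1b was lower in Tnfr-/- lungs than in Tnfr+/+ lungs in air on 1 of its probe sets (log2 difference -0.98 ± 0.16, adjusted p = 0.0177). Tnfrsf1a gave a difference of -0.44 ± 0.22 (adjusted p = 0.744), and the position of either probe set within its disrupted gene is not given in the sources used here. The lung epithelial markers were high on every array, with summed signals of 14 genes between 205240 and 226975. Replicate 1 of the Tnfr+/+ O3 72 h group stood apart. Its mean correlation with the other arrays was 0.927, against 0.942 to 0.954 for the rest, and its Gapdh 3′ to 5′ signal ratio was 4.45, against 0.890 to 1.74. The counts of members called in the late average and in Tnfr+/+ lungs at 72 h are given with and without it. Values of single members include it.

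The promoters of some members carry letters that E2F factors are known to bind. RefSeq promoter windows of 300 bases (250 before and 50 after a start of transcription, build GRCm38.p6) were matched by symbol for 40 of the 46 listed genes, all but Gins1, Gmnn, Pole, Prim2, Rfc2 and Tipin. The letters TTTCCCGC, TTTGGCGC, TTTCGCGC and TTTGCCGC were searched on both strands. They were present in 11 of the 40 genes (27.5%), against 2.61% of the 27025 genes in the whole table. By window, the shares were 21.6% of 51 and 2.26% of 32851. CCAAT, the letters of a common promoter box, whose last T can be the first letter of these motifs, stood in 45.1% of the member windows and 37.4% of all windows. The 7 genes below had a match and rose in at least 1 comparison of O3 with air, so their sites are shown as 30 bases, 5′ to 3′ on the gene's strand, with the match in capitals.
Cdc6: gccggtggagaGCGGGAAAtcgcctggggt
Cdt1: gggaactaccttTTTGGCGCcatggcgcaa
Dnmt1: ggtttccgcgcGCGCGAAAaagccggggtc
Hells: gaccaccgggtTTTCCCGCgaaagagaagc
Lig1: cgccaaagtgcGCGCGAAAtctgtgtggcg
Pole2: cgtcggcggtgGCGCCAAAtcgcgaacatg
Uhrf1: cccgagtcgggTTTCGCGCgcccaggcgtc
These 30 bases were chr11:98908002-98908031 (+ strand) for Cdc6, chr8:122568035-122568064 (+ strand) for Cdt1 and chr9:20952824-20952853 (- strand) for Dnmt1. They were chr19:38930917-38930946 (+ strand) for Hells and chr7:13278841-13278870 (+ strand) for Lig1. For Pole2 they were chr12:69228162-69228191 (- strand) and for Uhrf1 chr17:56304117-56304146 (+ strand). The matches of Cdt1, Lig1 and Pole2 began 33, 27 and 11 bases after the start, inside the first transcribed bases. Those of Hells, Cdc6, Uhrf1 and Dnmt1 began 62, 138, 185 and 219 bases before it. A further Dnmt1 match lay 34 bases after the same start. Some genes had windows at more than 1 start, and for Uhrf1 and Dnmt1 another window held none of these letters. Orc1, Pola1, Pold1 and Rfc3 also held a match and were called in none of the 6 comparisons with air. Matches were thus found in 7 of the 17 genes with a window that rose in at least 1 comparison, and in 4 of the other 23, which include Chaf1a, not measured. A match of letters describes the sequence, and binding was not measured.

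In both genotypes the members that passed the test after O3 were all higher than in air, and they passed it at 48 and 72 h. After 48 h, 17 of 45 members rose in Tnfr-/- lungs, where 2.6% of all genes were called higher and 1.49% lower. After 72 h, 16 rose in Tnfr-/- lungs (all genes, 2.55% higher and 1.7% lower). In Tnfr+/+ lungs 5 rose after 48 h (all genes, 1.04% higher and 0.336% lower) and 8 after 72 h (all genes, 1.93% higher and 1.5% lower). No member was called lower in any of these comparisons. The counts depend on single arrays. Without O3 48 h replicate 2 the Tnfr-/- count at 48 h was 8, and without air replicate 2 it was 11. At 72 h it was 10 without air replicate 3 or without O3 72 h replicate 3. In Tnfr+/+ lungs the 48 h count was 3 without air replicate 1 or without O3 48 h replicate 3, and the 72 h count was 5 without air replicate 3. The median log2 fold change over the members was 0.53 at 48 h and 0.64 at 72 h in Tnfr-/- lungs, and 0.38 and 0.53 in Tnfr+/+ lungs. Over all genes these medians lay between -0.06 and -0.02. In whole lung, more cells in the DNA synthesis phase and more of each RNA per cell cannot be told apart. The 3 comparisons of a genotype share its 3 air arrays. Alveolar macrophage markers moved with the members, with 4 of 13 markers higher in Tnfr-/- lungs at 48 and at 72 h, and 5 of 13 in Tnfr+/+ lungs at each time. The ratio of 3′ to 5′ signal, a sign of RNA quality, was also lower at the late times in Tnfr-/- lungs and less evenly so in Tnfr+/+ lungs. A lower ratio lies away from the high ratio of the array that stood apart. The Gapdh 3′ to 5′ ratio was 1.01 to 1.13 at 48 h and 0.890 to 1.08 at 72 h in Tnfr-/- lungs, against 1.28 to 1.43 in Tnfr-/- air lungs. In Tnfr+/+ lungs it was 1.30 to 1.33 at 48 h and, without the array that stood apart, 1.02 to 1.06 at 72 h. The Tnfr+/+ air range was 1.31 to 1.56, which the 48 h range overlapped. At 24 h the Gapdh ratio was 1.03 to 1.22 in Tnfr-/- lungs and 1.53 to 1.74 in Tnfr+/+ lungs. The actin ratio was 1.02 to 1.10 at the late times and 1.20 to 1.27 in air in Tnfr-/- lungs, and 1.10 to 1.29 and 1.26 to 1.55 in Tnfr+/+ lungs. The part of RNA quality in the rise of the members was not tested.

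Averaged over 48 and 72 h and both genotypes, 28 of 45 members were higher after O3 than in air and none was lower, while 6.21% of all genes were called higher and 6.89% lower. Their log2 fold changes ran between 0.24 and 2.52. The 17 others ran between -0.11 and 0.82, with a median of 0.47 over all 45 members, against -0.05 over all genes. Without the array that stood apart, 30 were called in this average, and 7 in place of 8 in Tnfr+/+ lungs at 72 h, where Dnmt1 was lost. By role, the late rise took in all 5 chromatin and methylation genes measured, 8 of 12 origin genes and 6 of 9 polymerase and primase genes. It took in 3 of 6 clamp and loader genes, 2 of 5 nucleotide genes and 2 of 3 replication protein A genes. It also took in Lig1 but not Fen1, Tipin but not Timeless, and not E2f1. These counts use 1 probe set per gene, and other probe sets of Fen1 and Rrm1 did pass.

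**Figure D1:**
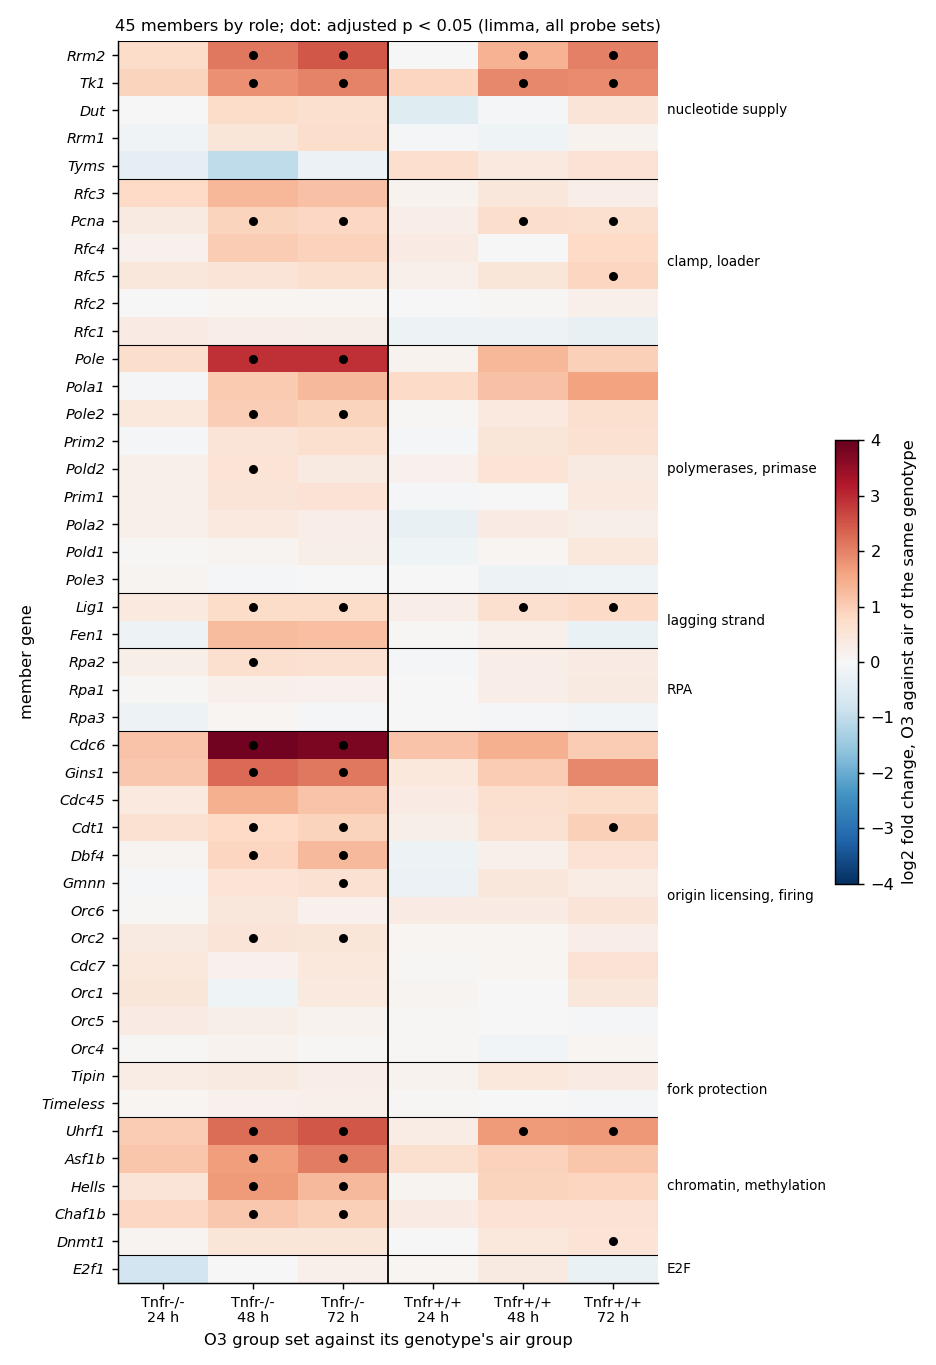
Each row is 1 of the 45 members, grouped by role, and each column is 1 comparison of an O3 group with the air group of its genotype (Tnfr-/- left, Tnfr+/+ right). Colour is the log2 fold change (red, higher after O3) and a dot marks an adjusted p under 0.05, with 17 and 16 dots at 48 and 72 h in Tnfr-/- lungs, 5 and 8 in Tnfr+/+ lungs, and none at 24 h.

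On the probe sets used, Rrm2 and Tk1 were the nucleotide genes that rose, in both genotypes and at both late times. Rrm2 is the subunit of ribonucleotide reductase whose level limits the making of deoxynucleotides. In Tnfr-/- lungs its signals were 170.4, 155 and 143 in air, 265, 291 and 227 after 24 h, 723, 794 and 525 after 48 h, and 926, 830.0 and 859 after 72 h. The Tnfr+/+ signals were 207, 151 and 262 in air, 184, 226 and 200.2 after 24 h, 616, 619 and 399 after 48 h, and 826, 756 and 879 after 72 h. All arrays at 48 and 72 h lay above all air arrays of the same genotype. The log2 fold change was 2.11 ± 0.20 at 48 h (adjusted p = 6.87e-06) and 2.48 ± 0.20 at 72 h in Tnfr-/- lungs (adjusted p = 8.97e-07). It was 1.41 ± 0.20 (adjusted p = 0.00100) and 2.02 ± 0.20 (adjusted p = 9.96e-06) in Tnfr+/+ lungs. At 24 h the Tnfr-/- arrays already stood above their air arrays, with a change of 0.74 ± 0.20 that did not pass (adjusted p = 0.0890), while the Tnfr+/+ change was 0.01 ± 0.20.

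Tk1 returns thymidine to the nucleotide pool. Its signals in Tnfr-/- lungs were 69.7, 88.1 and 126 in air, 178, 167 and 168 after 24 h, 283, 381 and 317 after 48 h, and 321, 366 and 415 after 72 h. Tnfr+/+ lungs gave 113, 66.7 and 64.4 in air, 94.0, 209 and 150.0 after 24 h, 264, 279.8 and 355 after 48 h, and 174, 373 and 389 after 72 h. The 48 and 72 h arrays did not overlap the air arrays in either genotype, and the lowest Tnfr+/+ array at 72 h was the array that stood apart. Tk1 rose by 1.82 ± 0.31 and 1.99 ± 0.31 on the log2 scale at 48 and 72 h in Tnfr-/- lungs, and by 1.92 ± 0.31 and 1.90 ± 0.31 in Tnfr+/+ lungs, with adjusted p between 0.000861 and 0.00340. On the probe sets used, the other 3 nucleotide genes were not called in any comparison. Rrm1, the large subunit of the reductase, gave 0.71 ± 0.25 at 72 h in Tnfr-/- lungs (adjusted p = 0.126) and 0.16 ± 0.25 in Tnfr+/+ lungs. The Tnfr+/+ value includes a signal of 339 on the array that stood apart, against 745 and 759 on the others. Another Rrm1 probe set was called at both late times in both genotypes. Dut, which removes dUTP, gave 0.65 ± 0.28 in Tnfr-/- and 0.53 ± 0.28 in Tnfr+/+ lungs at 72 h. Tyms, which makes thymidylate, had signals between 6.34 and 60.0 on the 24 arrays and no common direction.

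Pcna, the sliding clamp that holds the polymerases on DNA, rose in both genotypes at both late times. Its signals in Tnfr-/- lungs were 2036, 2311 and 2341 in air, 2682, 2915 and 2910.1 after 24 h, 4086, 4466 and 3939 after 48 h, and 3085, 4466 and 4389.6 after 72 h. Signals in Tnfr+/+ lungs were 2043, 1959 and 2085 in air, 2343, 2501 and 2443 after 24 h, 3419, 3409 and 2994 after 48 h, and 2436, 3239 and 4043 after 72 h. All O3 arrays were above all air arrays of their genotype at each of the 3 times. The log2 fold change was 0.90 ± 0.16 (adjusted p = 0.00249) and 0.82 ± 0.16 (adjusted p = 0.00500) at 48 and 72 h in Tnfr-/- lungs. It was 0.69 ± 0.16 (adjusted p = 0.0359) and 0.64 ± 0.16 (adjusted p = 0.0310) in Tnfr+/+ lungs. The Tnfr+/+ call at 48 h was lost when any 1 of the arrays compared was left out, with an adjusted p of up to 0.129, and the 72 h call without air replicate 1, 2 or 3, or O3 72 h replicate 2 or 3 (highest adjusted p = 0.111).

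Among the loader subunits only Rfc5 was called within a genotype on the probe sets used, in Tnfr+/+ lungs at 72 h. Its signals in Tnfr-/- lungs were 150.0, 150.1 and 139 in air, 219, 199 and 182 after 24 h, 219.9, 268 and 154 after 48 h, and 230.1, 215 and 238 after 72 h. The Tnfr+/+ arrays gave 133, 138 and 132 in air, 128, 151 and 198 after 24 h, 179, 229 and 161 after 48 h, and 266, 228 and 239 after 72 h. The 72 h arrays lay above the air arrays in both genotypes, and the change was 0.64 ± 0.18 (adjusted p = 0.0576) in Tnfr-/- lungs and 0.86 ± 0.18 (adjusted p = 0.0139) in Tnfr+/+ lungs. The Tnfr+/+ call was lost without air replicate 3 (highest adjusted p = 0.0524). On the probe set used, Rfc4 was called in the late average alone (0.69 ± 0.20, adjusted p = 0.0265). This call was lost without Tnfr-/- air replicate 2 or 3, or Tnfr+/+ air replicate 2 or 3 (highest adjusted p = 0.0808). On its other probe set Rfc4 was called at both late times in both genotypes, with changes between 1.32 and 2.36. Rfc3 had a late change of 0.82 ± 0.34 (adjusted p = 0.129) and Rfc2 of 0.10 ± 0.07. At 72 h the Tnfr+/+ Rfc3 signal was 24.2 on the array that stood apart and 152 and 147 on the others. Rfc1, the large subunit, had late values of opposite sign in the genotypes, 0.24 ± 0.16 in Tnfr-/- lungs and -0.29 ± 0.16 in Tnfr+/+ lungs at 72 h, neither past the test, nor did the difference between them pass (interaction 0.53 ± 0.22, adjusted p = 0.872).

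Both called polymerase epsilon genes rose in Tnfr-/- lungs at both late times. Pole encodes its catalytic subunit. In Tnfr-/- lungs its signals were 10.8, 11.4 and 13.9 in air, 19.6, 15.9 and 24.3 after 24 h, 138, 138 and 39.6 after 48 h, and 63.0, 104 and 116 after 72 h. In Tnfr+/+ lungs they were 15.5, 11.3 and 12.6 in air, 12.6, 13.7 and 16.7 after 24 h, 18.5, 53.1 and 35.7 after 48 h, and 11.0, 19.2 and 75.0 after 72 h. The air signals were low in both genotypes, so a small absolute change makes a large fold change. The Tnfr+/+ arrays at 72 h spread over their air range and above it. The lowest of them, 11.0, was the array that stood apart. The log2 fold change was 2.93 ± 0.55 (adjusted p = 0.00451) and 2.93 ± 0.55 (adjusted p = 0.00437) in Tnfr-/- lungs. It was 1.33 ± 0.55 (adjusted p = 0.336) and 0.94 ± 0.55 (adjusted p = 0.396) in Tnfr+/+ lungs. With signals under 32 set to 32, the Tnfr-/- changes were 1.51 at both times (adjusted p = 0.0250 and 0.0259).

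Pole2, its accessory subunit, was called in Tnfr-/- lungs at both late times. The Tnfr-/- signals were 102, 119 and 102 in air, 138, 146 and 153 after 24 h, 216, 279 and 157 after 48 h, and 189, 189 and 225 after 72 h. The Tnfr+/+ signals were 106, 119 and 97.6 in air, 119.6, 91.3 and 128 after 24 h, 180.1, 155 and 97.6 after 48 h, and 126, 211 and 177 after 72 h. Every late Tnfr-/- array was above every Tnfr-/- air array. The change was 0.98 ± 0.23 (adjusted p = 0.0210) and 0.90 ± 0.23 (adjusted p = 0.0339) in Tnfr-/- lungs and 0.65 ± 0.23 at 72 h in Tnfr+/+ lungs (adjusted p = 0.137). The 48 h call was lost without air replicate 1 or 3, or O3 48 h replicate 1 or 2 (highest adjusted p = 0.132), and the 72 h call without any 1 of the arrays compared. Pold2, a subunit of polymerase delta, rose in Tnfr-/- lungs at 48 h (0.56 ± 0.13, adjusted p = 0.0224) and had nearly the same change in Tnfr+/+ lungs (0.55 ± 0.13, adjusted p = 0.0504). Its means were 538 ± 47.3 after 48 h and 366 ± 54.0 in air in Tnfr-/- lungs, and 462 ± 63.7 and 313 ± 13.9 in Tnfr+/+ lungs (SD, n = 3). The Tnfr-/- call was lost without air replicate 1 or 2, or O3 48 h replicate 2 or 3 (highest adjusted p = 0.110). Both primase genes, Prim1 (0.37 ± 0.10) and Prim2 (0.56 ± 0.16), and Pola1, the catalytic subunit of polymerase alpha (1.28 ± 0.40), were called in the late average alone, with adjusted p between 0.0223 and 0.0424. Prim1 was lost without Tnfr-/- air replicate 2, or Tnfr+/+ air replicate 1 (highest adjusted p = 0.0772), Prim2 without Tnfr-/- air replicate 1 or 3, or Tnfr+/+ air replicate 2 or 3 (highest adjusted p = 0.0742), and Pola1 in 11 of the 18 fits that left out 1 array. Pola2, Pold1 and Pole3 were not called, with late changes of 0.30, 0.21 and -0.11.

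Lig1, the ligase that seals the lagging strand, changed by nearly the same amount in both genotypes. Its signals in Tnfr-/- lungs were 306, 305 and 280.0 in air, 405, 415 and 351 after 24 h, 464, 493 and 530.2 after 48 h, and 560.1, 432 and 486 after 72 h. Tnfr+/+ lungs gave 279, 334 and 329 in air, 407, 351 and 366 after 24 h, 491, 432 and 545 after 48 h, and 546, 501 and 544 after 72 h. The O3 arrays of all 3 times lay above the air arrays in each genotype. At 48 and 72 h Lig1 rose by 0.74 ± 0.12 and 0.72 ± 0.12 in Tnfr-/- lungs and by 0.64 ± 0.12 and 0.76 ± 0.12 in Tnfr+/+ lungs, with adjusted p between 0.00173 and 0.0117. The Tnfr+/+ call at 48 h was lost without air replicate 1, or O3 48 h replicate 3 (highest adjusted p = 0.0700). Its E2F-type letters in the first transcribed bases are printed above. Fen1, the flap nuclease that works beside it, is carried by a probe set whose signals fell into a low and a high range within groups. The Tnfr+/+ O3 72 h arrays, for instance, gave 1024, 207 and 208, the first of them on the array that stood apart. The Tnfr+/+ air arrays gave 203, 693 and 530.2. On this probe set Fen1 was not called in any comparison. Its other probe set was called at 48 h in both genotypes and at 72 h in Tnfr-/- lungs.

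The replication protein A genes had small values on the probe sets used. Rpa2 rose in Tnfr-/- lungs at 48 h (0.65 ± 0.18, adjusted p = 0.0441), with means of 197 ± 30.9 there and 125 ± 13.6 in Tnfr-/- air lungs (SD, n = 3), and this call was lost when any 1 array of those compared was left out. In Tnfr+/+ lungs Rpa2 gave 0.25 ± 0.18. On its other probe set Rpa2 rose at 48 h in both genotypes. The changes there were 0.93 (adjusted p = 0.0224) in Tnfr-/- and 0.98 (adjusted p = 0.0322) in Tnfr+/+ lungs. Rpa1 was called in the late average at 0.24 ± 0.07 (adjusted p = 0.0290), the smallest change among the called members, and was lost without Tnfr-/- air replicate 1, 2 or 3, or Tnfr-/- O3 48 h replicate 2, or Tnfr+/+ air replicate 1 (highest adjusted p = 0.0976). Rpa3, the small subunit, gave -0.04 ± 0.10.

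Among the origin genes, Cdt1 rose in both genotypes. Cdt1 brings the MCM helicase to origins and carries the site TTTGGCGC shown above. Its Tnfr-/- signals were 378, 288 and 333 in air, 503, 519.9 and 484 after 24 h, 608, 644 and 495 after 48 h, and 560.2, 608 and 688 after 72 h. Signals in Tnfr+/+ lungs were 363, 256 and 355 in air, 393, 399.7 and 346 after 24 h, 487, 426 and 548 after 48 h, and 794, 530.2 and 568 after 72 h. In Tnfr-/- lungs all 24 h arrays already lay above the air arrays, which did not pass the test (0.60 ± 0.17, adjusted p = 0.108). The change at 72 h was 0.90 ± 0.17 (adjusted p = 0.00463) in Tnfr-/- lungs and 0.95 ± 0.17 (adjusted p = 0.00414) in Tnfr+/+ lungs. At 48 h it was 0.81 ± 0.17 (adjusted p = 0.0104) in Tnfr-/- lungs and 0.60 ± 0.17 in Tnfr+/+ lungs (adjusted p = 0.108), and the Tnfr-/- call was lost without air replicate 2, or O3 48 h replicate 2 (highest adjusted p = 0.0661). Gmnn, geminin, binds Cdt1 and blocks new licensing. It rose in Tnfr-/- lungs at 72 h (0.60 ± 0.16, adjusted p = 0.0389), with means of 347 ± 12.4 at 72 h and 229.8 ± 13.1 in air (SD, n = 3), a call lost without any 1 of the arrays compared, and its 24 h values were -0.07 in Tnfr-/- and -0.25 in Tnfr+/+ lungs.

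Cdc6, the loader that works with Cdt1, had the largest late fold change of the members, from uneven and low air signals. In Tnfr-/- lungs its signals were 21.8, 5.48 and 4.02 in air, 13.1, 5.51 and 71.9 after 24 h, 104, 109 and 129 after 48 h, and 74.7, 124 and 131 after 72 h. The Tnfr+/+ arrays gave 16.2, 57.0 and 13.9 in air, 80.4, 75.0 and 23.5 after 24 h, 94.7, 61.4 and 43.3 after 48 h, and 76.7, 13.6 and 99.5 after 72 h. The late Tnfr-/- arrays were all above the Tnfr-/- air arrays, whereas the Tnfr+/+ groups overlapped. It rose by 3.86 ± 0.87 and 3.77 ± 0.87 in Tnfr-/- lungs (adjusted p = 0.0162 and 0.0186). In Tnfr+/+ lungs it gave 1.43 ± 0.87 and 1.00 ± 0.87 (adjusted p = 0.582 and 0.607). The call at 48 h was lost without air replicate 2 or 3, or O3 48 h replicate 2 or 3 (highest adjusted p = 0.0899), and at 72 h without air replicate 2 or 3, or O3 72 h replicate 2 or 3 (highest adjusted p = 0.0991). The Tnfr-/- air signals of 5.48 and 4.02 are near the bottom of the scale, and the size of the fold change rests on them.

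Dbf4, the activator of the Cdc7 kinase that fires origins, was called in Tnfr-/- lungs at both late times. Its Tnfr-/- signals were 107, 82.3 and 104 in air, 118, 105 and 94.0 after 24 h, 149, 194 and 195 after 48 h, and 310.1, 234 and 181 after 72 h. In Tnfr+/+ lungs they were 158, 142 and 158 in air, 159, 126 and 115 after 24 h, 159, 208 and 165 after 48 h, and 295, 172 and 234 after 72 h. The late Tnfr-/- arrays did not overlap the air arrays, and the Tnfr-/- air arrays were all below the Tnfr+/+ air arrays. The change was 0.87 ± 0.21 (adjusted p = 0.0233) and 1.28 ± 0.21 (adjusted p = 0.00123) in Tnfr-/- lungs, and 0.58 ± 0.21 at 72 h in Tnfr+/+ lungs (adjusted p = 0.143). The difference in air, -0.65 ± 0.21, did not pass (adjusted p = 0.397). The 48 h call was lost without air replicate 2 or 3, or O3 48 h replicate 2 or 3 (highest adjusted p = 0.106). Cdc7 itself gave a late change of 0.32 ± 0.21 and was not called.

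Gins1, a subunit of the GINS complex that completes the active helicase, was called in Tnfr-/- lungs as well. Its Tnfr-/- signals were 32.3, 82.2 and 11.5 in air, 76.5, 53.7 and 71.0 after 24 h, 152, 157 and 144 after 48 h, and 145, 135 and 127 after 72 h. The Tnfr+/+ signals were 54.5, 65.1 and 18.8 in air, 84.0, 67.0 and 28.9 after 24 h, 87.7, 104 and 59.2 after 48 h, and 124, 168 and 178 after 72 h. The late Tnfr-/- arrays lay in a narrow range above the scattered air arrays. It rose by 2.28 ± 0.54 and 2.12 ± 0.54 in Tnfr-/- lungs (adjusted p = 0.0221 and 0.0332), and at 72 h its Tnfr+/+ change of 1.93 ± 0.54 did not pass (adjusted p = 0.0582). Both Tnfr-/- calls were lost in 5 of the 6 fits that left out 1 of the arrays compared, at 48 h in all but the fit without air replicate 2, and likewise at 72 h. Cdc45, its partner on the helicase, was called in the late average (0.99 ± 0.26, adjusted p = 0.0155) and lost without Tnfr+/+ air replicate 3 (highest adjusted p = 0.0620).

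Of the origin recognition genes, Orc2 was called in Tnfr-/- lungs. Its Tnfr-/- signals were 234, 177 and 211 in air, 253, 267 and 276 after 24 h, 264, 307 and 308 after 48 h, and 282, 253 and 338 after 72 h. Tnfr+/+ lungs gave 230.5, 216 and 238 in air, 264, 216 and 245 after 24 h, 252, 252 and 215 after 48 h, and 295, 286 and 247 after 72 h. O3 arrays were above air arrays at all 3 times in Tnfr-/- lungs, by 0.51 ± 0.13 at 48 h (adjusted p = 0.0400) and 0.49 ± 0.13 at 72 h (adjusted p = 0.0453). The call at 48 h was lost without air replicate 2 or 3, or O3 48 h replicate 2 or 3 (highest adjusted p = 0.168), and at 72 h without air replicate 2 or 3, or O3 72 h replicate 1 or 3 (highest adjusted p = 0.201). On its next brightest probe set the late change was 0.12 and did not pass (adjusted p = 0.355), and on its dimmest it was 0.37 and passed (adjusted p = 0.0374). Orc6 was called in the late average (0.37 ± 0.10, adjusted p = 0.0232) and lost without Tnfr-/- air replicate 1 or 2, or Tnfr+/+ air replicate 2 or 3 (highest adjusted p = 0.0857). Orc1, Orc4 and Orc5 were not called (0.17, 0.04 and 0.07).

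**Figure D2:**
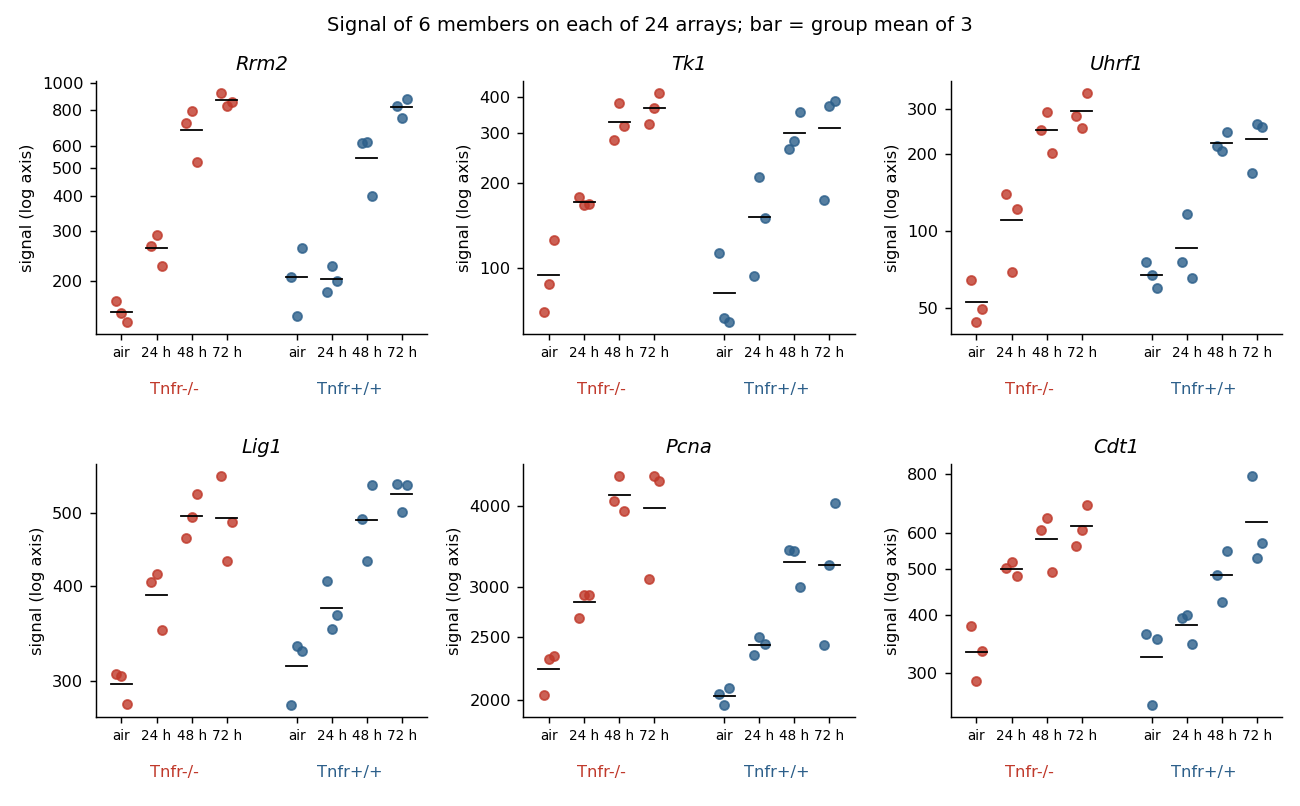
Signal on a log axis for Rrm2, Tk1, Uhrf1, Lig1, Pcna and Cdt1, the 6 members called in at least 3 of the 6 comparisons with air. Points are single arrays, bars the mean of 3, Tnfr-/- groups in red on the left and Tnfr+/+ groups in blue on the right. In each panel the 48 and 72 h arrays lie above the air arrays of the same genotype.

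The chromatin and methylation genes, which act on newly copied DNA, were all called in the late average, and Uhrf1 had the largest late change after Cdc6. Uhrf1, which brings the maintenance methyltransferase to the fork, gave Tnfr-/- signals of 64.5, 44.1 and 49.6 in air, 139, 69.4 and 122 after 24 h, 248, 291 and 202 after 48 h, and 281, 252 and 348 after 72 h. Signals in Tnfr+/+ lungs were 75.5, 67.2 and 60.1 in air, 75.7, 117 and 65.7 after 24 h, 214, 206 and 243 after 48 h, and 168, 262 and 255 after 72 h. Late and air arrays did not overlap in either genotype. Uhrf1 rose by 2.23 ± 0.26 (adjusted p = 5.39e-05) and 2.48 ± 0.26 (adjusted p = 1.07e-05) in Tnfr-/- lungs. In Tnfr+/+ lungs it rose by 1.71 ± 0.26 (adjusted p = 0.00173) and 1.74 ± 0.26 (adjusted p = 0.000925). At 24 h its Tnfr-/- change was 1.02 ± 0.26 (adjusted p = 0.0628), and its Tnfr+/+ change 0.31 ± 0.26. Dnmt1, the methyltransferase itself, rose in Tnfr+/+ lungs at 72 h (0.56 ± 0.14, adjusted p = 0.0346) and had a change of 0.49 ± 0.14 in Tnfr-/- lungs (adjusted p = 0.0576). That Tnfr+/+ call was lost in 5 of the 6 fits that left out 1 of the arrays compared, all but the fit without O3 72 h replicate 2. Dnmt1 means were 1164 ± 46.9 at 72 h and 832 ± 51.5 in air in Tnfr-/- lungs, and 1213 ± 280.0 and 813 ± 63.5 in Tnfr+/+ lungs (SD, n = 3).

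Hells, a helicase-like remodeler needed for DNA methylation, was called in Tnfr-/- lungs. Its Tnfr-/- signals were 58.8, 39.9 and 39.4 in air, 69.3, 49.8 and 80.4 after 24 h, 161, 175 and 111 after 48 h, and 139, 102 and 97.4 after 72 h. The Tnfr+/+ arrays gave 66.7, 43.5 and 69.8 in air, 45.6, 81.3 and 66.4 after 24 h, 101, 124 and 101 after 48 h, and 116, 69.8 and 147 after 72 h. Late arrays lay above air arrays in both genotypes, by 1.69 ± 0.29 (adjusted p = 0.00214) and 1.30 ± 0.29 (adjusted p = 0.0148) in Tnfr-/- lungs, and by 0.88 ± 0.29 and 0.85 ± 0.29 in Tnfr+/+ lungs, which did not pass (adjusted p = 0.189 and 0.119) and where the lowest 72 h array stood level with the highest air array. The Tnfr-/- call at 72 h was lost without air replicate 2 or 3, or O3 72 h replicate 1 (highest adjusted p = 0.0729).

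Asf1b and Chaf1b hand histones to new DNA. Asf1b gave Tnfr-/- signals of 68.0, 201 and 276 in air, 339, 312 and 353 after 24 h, 529, 396 and 566 after 48 h, and 579.9, 705 and 641 after 72 h. In Tnfr+/+ lungs they were 249, 224 and 199.6 in air, 344, 396 and 302 after 24 h, 367, 408 and 507 after 48 h, and 411, 637 and 429 after 72 h. All O3 arrays were above all air arrays in each genotype at each time. It rose by 1.66 ± 0.33 (adjusted p = 0.00708) and 2.04 ± 0.33 (adjusted p = 0.00123) in Tnfr-/- lungs. In Tnfr+/+ lungs the 72 h change was 1.11 ± 0.33 (adjusted p = 0.0793). The first Tnfr-/- air array was well below the other 2, which widens these folds. Chaf1b gave Tnfr-/- signals of 56.1, 123 and 127 in air, 179.6, 166 and 169 after 24 h, 198, 227 and 181 after 48 h, and 155, 197 and 209.9 after 72 h. The Tnfr+/+ signals were 118, 151 and 121 in air, 158, 194 and 140.2 after 24 h, 159.7, 204 and 221 after 48 h, and 173, 219.5 and 182 after 72 h. It rose by 1.07 ± 0.24 and 0.96 ± 0.24 in Tnfr-/- lungs (adjusted p = 0.0153 and 0.0299). The same Tnfr-/- air array held its lowest value as well. The call at 48 h was lost without air replicate 1, or O3 48 h replicate 2 (highest adjusted p = 0.0818), and at 72 h without air replicate 1, or O3 72 h replicate 2 or 3 (highest adjusted p = 0.127).

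Tipin and Timeless form a pair that steadies the fork. Tipin gave Tnfr-/- signals of 334, 300.5 and 312 in air, 396, 394 and 378 after 24 h, 439.7, 436 and 348 after 48 h, and 391, 371 and 380.5 after 72 h. Tnfr+/+ lungs gave 238, 222 and 345 in air, 285, 305 and 289.7 after 24 h, 431, 347 and 288 after 48 h, and 263, 373 and 374 after 72 h. It was called in the late average alone (0.35 ± 0.11, adjusted p = 0.0383), a call lost in 14 of the 18 fits that left out 1 array (highest adjusted p = 0.118). Timeless gave a late change of 0.08 ± 0.10. E2f1, a transcription factor of many of these genes, gave Tnfr-/- signals of 173, 190.0 and 173 in air, 137, 125 and 67.9 after 24 h, 176, 284 and 108 after 48 h, and 208, 220.3 and 185 after 72 h. Signals in Tnfr+/+ lungs were 145, 155 and 163 in air, 140.3, 150.5 and 203 after 24 h, 185, 189.7 and 217 after 48 h, and 114, 179 and 104 after 72 h. Its late arrays overlapped the air arrays, other than in Tnfr+/+ lungs at 48 h, and the late change was 0.06 ± 0.18 (adjusted p = 0.871).

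Over time, the step to 48 h was the one at which members were called. Between 24 and 48 h, Rrm2 and Uhrf1 rose in Tnfr-/- lungs (1.37 ± 0.20 and 1.21 ± 0.26, adjusted p = 0.00440 and 0.0489), where 0.345% of all genes were called higher. The same genes rose in Tnfr+/+ lungs (1.40 ± 0.20 and 1.40 ± 0.26, adjusted p = 0.00461 and 0.0282), where 0.224% were. Between 48 and 72 h no member was called in Tnfr-/- lungs (all genes, 0.00862%), and the median step was -0.01. Before adjustment 1 was higher at p under 0.05 (all genes, 346 higher and 303 lower of 11597, 5.6%). In Tnfr+/+ lungs none was called either (all genes, 0%), and the median step was 0.12. Before adjustment 5 were above and 1 below (all genes, 394 above and 567 below, 8.29%). At 24 h no member was called in Tnfr-/- lungs (all genes, 0.845% higher and 0.466% lower by limma). Before adjustment, 10 were above and 1 below at p under 0.05. Over all genes 761 were above and 769 below, 13.2% in either direction. In Tnfr+/+ lungs none was called at 24 h (all genes, 0.0862% higher and 0.00862% lower). Before adjustment 1 was above (all genes, 394 above and 295 below, 5.94%).

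**Figure D3:**
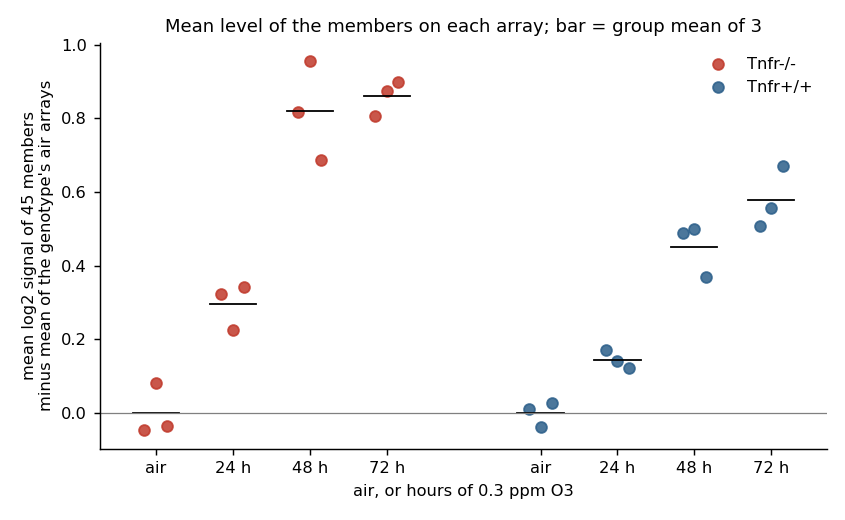
The mean log2 signal of the 45 members on each array, as a difference from the mean of the air arrays of the same genotype (Tnfr-/- left in red, Tnfr+/+ right in blue, bar the mean of 3). The Tnfr-/- arrays lie at 0.23 to 0.34 after 24 h, 0.69 to 0.96 after 48 h and 0.81 to 0.90 after 72 h, and the Tnfr+/+ arrays at 0.12 to 0.17, 0.37 to 0.50 and 0.51 to 0.67.

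The plot of the mean over the members shows the same course by array. Between 39 and 42 of the 45 members lay above their air mean on each late Tnfr-/- array, and between 33 and 40 on each late Tnfr+/+ array. By the median of the members, which gives less weight to Pole and Cdc6, late Tnfr-/- arrays stood at 0.49 to 0.73 above air and late Tnfr+/+ arrays at 0.29 to 0.51. The array that stood apart gave a mean of 0.51, and 33 members above air. These are descriptions of the list, with no test.

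Between the genotypes no member was called at any time. In air, 0 members were called (all genes, 0.069%). At an unadjusted p under 0.05, 2 were lower in Tnfr-/- lungs, Dbf4 and Pold1. Of 11597 genes, 323 were higher and 432 lower, 6.51% in either direction. After 24 h, 0 were called (all genes, 1.05%). Before adjustment 3 were above and 1 below in Tnfr-/- lungs (all genes, 673 above and 857 below, 13.2%). After 48 h, 0 were called (all genes, 0.147%), with 9 higher and none lower before adjustment (all genes, 439 higher and 652 lower, 9.41%). After 72 h, 0 were called (all genes, 0.129%), with 5 higher and 1 lower before adjustment (all genes, 527 higher and 670 lower, 10.3%). The median difference over the members was -0.08 in air, 0.11 after 24 h, 0.18 after 48 h and 0.05 after 72 h, against medians between -0.04 and 0.00 over all genes.

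The change after O3 was larger in Tnfr-/- than in Tnfr+/+ lungs for 34 of 45 members at 24 h, 38 at 48 h and 30 at 72 h. Over all genes it was larger for 5564, 5255 and 5579 of 11597 at these times. The times share the same air arrays and the members vary together, so these counts are a description. The test of that difference, the interaction of genotype and O3, called none. At 24 h the test called 0 members (all genes, 0.0172%), with 2 at an unadjusted p under 0.05 (all genes, 6.48%). At 48 h it called 0 (all genes, 0%), with 6 unadjusted (all genes, 5.64%), and at 72 h 0 (all genes, 0.00862%), with 4 unadjusted (all genes, 5.19%). All of these were toward a larger change in Tnfr-/- lungs. The shares of all genes are for either direction. Of 11597 genes, 371, 293 and 287 were unadjusted toward a larger change in Tnfr-/- lungs at 24, 48 and 72 h. The smallest adjusted p of a member was 0.707 at 24 h, 0.844 at 48 h and 0.872 at 72 h. For Rrm2 the interaction was 0.73 ± 0.28 at 24 h, with a 95% interval of 0.14 to 1.32, and 0.70 ± 0.28 at 48 h (0.11 to 1.30). For Pole at 72 h it was 1.98 ± 0.78 (0.34 to 3.63), and for Cdc6 2.76 ± 1.24 (0.17 to 5.36). For Tk1 at 48 h it was -0.09 ± 0.45 (-1.03 to 0.84). A called member in 1 genotype and not in the other is therefore not shown to differ between them. The Gapdh 3′ to 5′ ratio also differed between the genotypes without overlap at 24 and 48 h. It was 1.03 to 1.22 in Tnfr-/- and 1.53 to 1.74 in Tnfr+/+ lungs at 24 h. At 48 h it was 1.01 to 1.13 and 1.30 to 1.33, and its part here was not tested.

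The levels after O3 give another view than the folds. Dbf4 had an interaction of 0.70 ± 0.30 at 72 h, which did not pass (adjusted p = 0.872), and its signals after 72 h were 310.1, 234 and 181 in Tnfr-/- lungs and 295, 172 and 234 in Tnfr+/+ lungs, which overlap. On the probe set used, Rpa2 had signals of 184, 233 and 176 in Tnfr-/- lungs after 48 h and 133, 126 and 147 in Tnfr+/+ lungs. These do not overlap (0.53 ± 0.18, adjusted p = 0.275). On its other probe set the change against air at 48 h was 0.93 in Tnfr-/- and 0.98 in Tnfr+/+ lungs. Pcna after 48 h gave 4086, 4466 and 3939 in Tnfr-/- lungs and 3419, 3409 and 2994 in Tnfr+/+ lungs (0.35 ± 0.16, adjusted p = 0.434).

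All 5 members called at 48 h in Tnfr+/+ lungs (Rrm2, Tk1, Uhrf1, Lig1 and Pcna) were also called in Tnfr-/- lungs, and 12 were called in Tnfr-/- lungs alone. At 72 h, 6 were called in both, 10 in Tnfr-/- lungs alone and 2 in Tnfr+/+ lungs alone (Rfc5 and Dnmt1). Over all genes called higher, 94 were called at 48 h in both genotypes, 207 in Tnfr-/- lungs alone and 27 in Tnfr+/+ lungs alone, and 158, 138 and 66 at 72 h. The members called in both made up 29.4% of the Tnfr-/- calls and 100% of the Tnfr+/+ calls at 48 h, against 31.2% and 77.7% over all genes. At 72 h these shares were 37.5% and 75%, against 53.4% and 70.5%. With 5 to 17 members in each share, nothing particular to the members is read from them. Across the 45 members the log2 fold changes of the genotypes, which use different air arrays, correlated with r of 0.45 at 24 h, 0.78 at 48 h and 0.71 at 72 h. Members are not independent of each other, so this is a description.

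**Figure D4:**
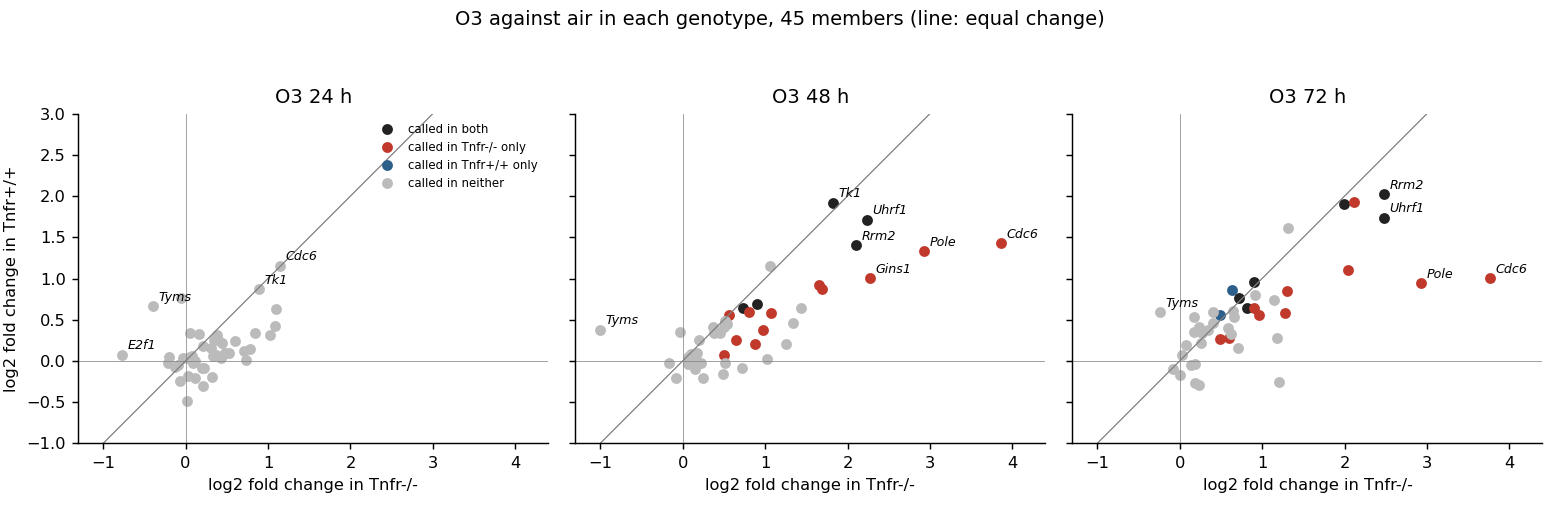
Log2 fold change of O3 against air in Tnfr-/- lungs (horizontal) and Tnfr+/+ lungs (vertical) for the 45 members at 24, 48 and 72 h, coloured by where the member was called. Points below the line changed more in Tnfr-/- lungs, 38 of 45 at 48 h, with Cdc6 and Pole farthest from it.

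Genes of neighbouring functions were set beside the members, with the shares of all genes called in the late average, 6.21% higher and 6.89% lower, as background. Of 8 MCM genes measured, 5 rose in Tnfr-/- lungs at 48 h and 5 at 72 h, and 3 and 5 in Tnfr+/+ lungs, with 7 called in the late average. Mcm5, Mcm2 and Mcm7, subunits of the replicative helicase, had late changes of 1.44 ± 0.10, 1.23 ± 0.12 and 0.77 ± 0.08. Of 19 further replication genes measured, 6 were higher late and none lower. These were led by Top2a, the topoisomerase that untangles copied DNA (1.53 ± 0.12), Pclaf, a Pcna-binding protein (1.54 ± 0.14), and Topbp1, an activator of origin firing (0.72 ± 0.10). Of 23 other nucleotide genes, 6 were higher and 2 lower, and the count of lower genes is near the background. The smallest adjusted p were those of Nme2 (0.65 ± 0.07), Dctpp1 (0.59 ± 0.09) and Nme1 (0.62 ± 0.11), which balance or clean the nucleotide pool, while Tk2, the mitochondrial thymidine kinase, fell by 0.39 ± 0.09 (adjusted p = 0.0110). Of 26 E2F, Rb and cyclin genes, 9 were higher and 2 lower, with Ccna2 at 1.78 ± 0.11, Cks1b at 1.57 ± 0.10 and Ccne2 at 1.10 ± 0.19, cyclins and a cyclin kinase subunit. The count of lower genes is near the background here as well.

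The mitosis genes had larger medians than the members at 48 and 72 h. Of 19 measured, 14 and 17 rose in Tnfr-/- lungs at 48 and 72 h, and 8 and 15 in Tnfr+/+ lungs. Their median log2 fold change in Tnfr-/- lungs was 0.01 at 24 h, 1.23 at 48 h and 2.01 at 72 h. In Tnfr+/+ lungs it was -0.11, 1.06 and 1.59. The medians of the members were 0.22, 0.53 and 0.64 in Tnfr-/- lungs and 0.08, 0.38 and 0.53 in Tnfr+/+ lungs. Taken gene by gene, the change between 48 and 72 h had a median of 0.54 for mitosis genes and -0.01 for members in Tnfr-/- lungs, and 0.52 and 0.12 in Tnfr+/+ lungs, although no gene of either list was called for that step.

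**Figure D5:**
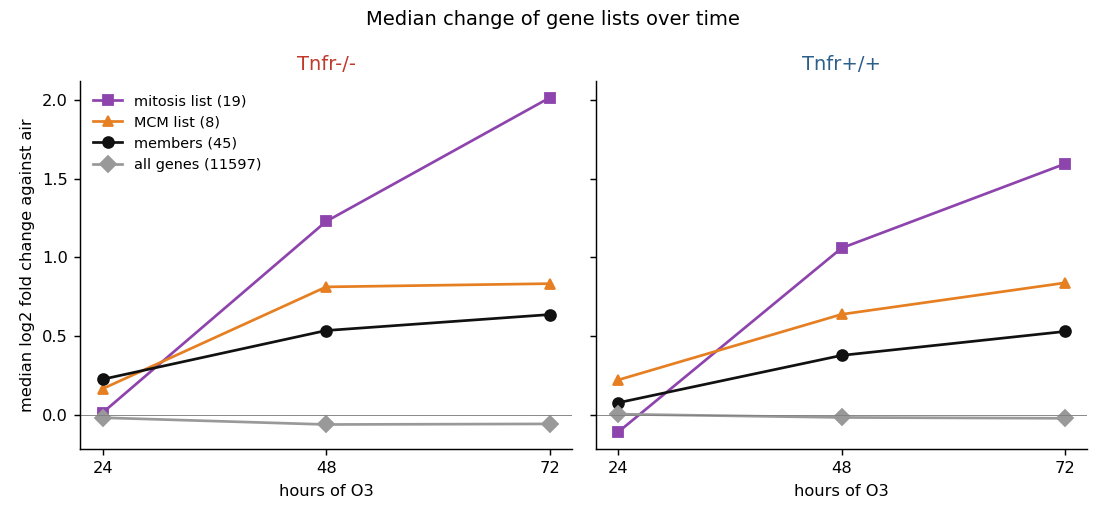
Median log2 fold change against air of the members, the MCM genes, the mitosis genes and all genes after 24, 48 and 72 h, in Tnfr-/- lungs (left) and Tnfr+/+ lungs (right). The mitosis genes reach 2.01 and 1.59 at 72 h, the members 0.64 and 0.53, and all genes stay near 0.

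Markers of other cells were measured for whether they moved with the members. The summed signal of 13 alveolar macrophage markers was 15051 to 16146 in Tnfr-/- air lungs, 18236 to 21880.4 after 24 h, 25876 to 28190.1 after 48 h and 22761 to 24969.6 after 72 h. Tnfr+/+ lungs had sums of 12956 to 16890.2 in air, 15747 to 16485 after 24 h, 20034 to 37856 after 48 h (middle 22924) and 20523 to 25912 after 72 h. Fabp4 alone ran from 171 to 12163 over the 24 arrays (median 708). Even at their highest signals the other markers do not add up to 37856, so that sum rests on Fabp4. In the late average 8 of the 13 were higher, among them Ctsk (1.35 ± 0.12), Cd68 (1.13 ± 0.11) and Marco (1.12 ± 0.17). Endothelial markers were lower, 5 of 10 in the late average, with Kdr at -0.63 ± 0.09. None of 6 thymus markers and none of 9 T cell markers was called, and 1 of 10 B cell markers was lower. In Tnfr+/+ lungs at 48 h the thymus sums ran from 693 to 1819 with a middle value of 742. The highest thymus sum in any other group was 1057. The T cell sums there ran from 1036 to 2013 (middle 1232) and the liver sums from 1705 to 4406 (middle 1745). Among the liver markers Cyp2e1 ran from 209 to 3226 over the 24 arrays (median 504). Whether 1 array held all of these high sums is not given here. Their part in the Tnfr+/+ signals of the members at 48 h was not tested. Of 10 neutrophil markers, 2 were higher in the late average, Lcn2 (1.92 ± 0.13), which injured epithelium also makes, and Cd177 (0.59 ± 0.14). Their summed signal in Tnfr-/- lungs was 3697 to 4136 in air, 6103 to 8956 after 24 h, 7625 to 9242 after 48 h and 6118 to 7529 after 72 h. Tnfr+/+ sums were 5986 to 6837 in air, 4317 to 5262 after 24 h, 5899.9 to 9985 after 48 h and 7276 to 9288 after 72 h, which overlap air at 48 h. Of 10 fibroblast markers 1 was higher and 2 were lower, and of 11 liver markers 1 was higher and 3 were lower, with sums that overlapped those of air in Tnfr-/- lungs at both late times. In Tnfr+/+ lungs the fibroblast sum was 30523 to 32566 at 48 h, below the 33799 to 38513 of air, and the liver sum was 1334 to 2045 at 72 h, below the 2250.2 to 3456 of air. The part of these cell types in the rise of the members was not tested.

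Several members had further probe sets, 23 in all, and for 18 of these all probe sets had the same sign in the late average. The probe set used was not always the one with the largest change. For Rrm1 another probe set gave a late change of 1.01 (adjusted p = 2.55e-05), against 0.30 on the brighter one. For Fen1 another gave 1.46 (adjusted p = 9.28e-06), with an r of 0.21 between the pair over the 24 arrays. For Rfc4 another gave 1.76 (adjusted p = 3.46e-07), higher in both genotypes at both late times. Rrm2 gave 2.75 and 2.80 on its other probe sets and Uhrf1 3.11, all higher as on the probe sets used. Other calls did not pass on a further probe set of the gene. In the late average these were Prim1 (adjusted p = 0.143), Prim2 (adjusted p = 0.382) and Rpa1 (adjusted p = 0.0572). In Tnfr+/+ lungs they were Cdt1 and Dnmt1 at 72 h (adjusted p = 0.0515 and 0.224) and Uhrf1 at 48 h (adjusted p = 0.0718). Orc2 is given above. The 3 Tyms probe sets gave -0.07, 0.60 and 0.12, none called. Which transcripts each of these probe sets reads is not analysed here.

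Among themselves, the 28 members called late varied together over the 24 arrays, with a median pairwise r of 0.60 over 378 pairs, against 0.03 over 136 pairs of the 17 members not called. The points share the same 24 lungs and the split by call favours this difference, so it is a description. Uhrf1 (r = 0.95), Rrm2 (r = 0.94) and Pcna (r = 0.90) followed the mean of the called members most closely, and Pole3 ran against it (r = -0.43). Other genes were searched among 6460 of the 11597, with the dimmer genes left out. The lists set beside the members above (MCM, mitosis, cyclin, further replication, other nucleotide and cell marker genes) were left out too. How closely those genes follow the mean is not given here. Of the 6460, Clec4n (r = 0.95), F7 (r = 0.95) and Ms4a8a (r = 0.94) had the pattern most like that mean. Wfdc21 (r = 0.93) and Pbk (r = 0.93) came next over the 24 arrays. The mean is of members picked for their late rise, which favours genes that rise late. Clec4n, a C-type lectin of myeloid cells, had means of 286 in air, 626 after 24 h, 1122 after 48 h and 1067 after 72 h in Tnfr-/- lungs, and 327, 477, 783 and 973 in Tnfr+/+ lungs. Pbk is a mitotic kinase.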

How the data were processed

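RNA of 24 mouse lungs was hybridised to Affymetrix MOE430A arrays, 1 mouse per array and 3 per group. The deposited values are MAS5 signal intensities on a linear scale, which the authors made in Affymetrix Expression Console with scaling of each array. The later steps of their methods are not in these values. Here the 24 arrays were quantile normalised, floored at 1 and taken to log2. The 64 control probe sets were left out, and a probe set was kept if it reached the 20th percentile on at least 1 array, which left 20537 of 22644. Platform annotation gave 1 gene for 20338 probe sets, several for 691 and none for 1551. One model of the 8 group means was fitted with limma 3.58.1 in R 4.3.3 (16 residual and 2.38 prior degrees of freedom), with Benjamini-Hochberg adjustment over all probe sets kept. It was tested on simulated data. MAS5 intensities near the bottom of the scale vary widely, and 3 arrays per group limit the precision. Signals are given per array for members called in at least 1 comparison with air, up to 16, plus Tipin and E2f1. Members, lists and tests were chosen with earlier results of these data known. Promoter sequences are from RefSeq (GRCm38.p6).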

Additional observations from a re-analysis of the deposited data

How the results depend on the processing

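Counts here are of members called out of 45. The late average gave 28, and 18 with a filter at the median on 3 arrays. With only the arrays of the groups compared in the fit, Tnfr-/- lungs gave 8 at 48 h and 4 at 72 h in place of 17 and 16, Tnfr+/+ lungs gave 1 and 0 in place of 5 and 8, and the steps between 24 and 48 h gave 0 in both genotypes in place of 2. The methods' t-test after Benjamini-Hochberg gave 4 and 1 in Tnfr-/- lungs, 0 and 0 in Tnfr+/+ lungs, and 0 for both steps. At the study's p without adjustment, it gave 7 in Tnfr-/- and 1 in Tnfr+/+ lungs at 24 h, 6 and 4 for the steps in the same order, and 3, 6, 4 and 2 between genotypes in air and after 24, 48 and 72 h. Over all genes that test passed 4.78% and 1.6% at 24 h, 3.37% and 1.66% for the steps, and 8.52%, 14.4%, 8.63% and 5.92% between genotypes. The member counts of that test between genotypes are thus near the background. The limma fit at the study's unadjusted p gave 6 in Tnfr-/- lungs at 24 h, 9 and 14 in Tnfr+/+ lungs at 48 and 72 h, 2, 4, 9 and 6 between genotypes, 2, 6 and 4 for the interactions, 9 and 6 for the steps to 48 h, and 1 for the Tnfr+/+ step to 72 h. Over all genes it passed 5.3% in Tnfr-/- lungs at 24 h, 4.86% and 8.09% in Tnfr+/+ lungs, 3.21% and 2.81% for the steps to 48 h, and 2.42% for the step to 72 h. Between genotypes it passed 6.51%, 13.2%, 9.41% and 10.3% of all genes, and for the interactions 6.48%, 5.64% and 5.19%. At 48 h the 9 members between genotypes and the 6 of the interaction lie above these shares, and none passed after adjustment. At 24 h in Tnfr-/- lungs, values as deposited gave 1, the median filter 2 and array weights 3, in place of 0. For the Tnfr-/- step to 48 h, values as deposited gave 1, no filter 1 and array weights 6. Using the second probe set of a gene gave 8 in Tnfr+/+ lungs at 48 h and 1 for the Tnfr+/+ step. The cause of these shifts was not tested.

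Replicate numbers recur across groups, but arrays of the same number did not deviate together (mean r = 0.007 over 84 pairs, lowest -0.181, highest 0.115), and 9 of 24 arrays were closest to their own number. With the replicate number as a block, the late average gave 27, Tnfr-/- lungs 16 and 16 at 48 and 72 h, Tnfr+/+ lungs 5 and 8, and the steps to 48 h 1 and 1.

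Leaving out 1 array at a time gave 23 to 30 members in the late average. In Tnfr-/- lungs it gave 0 to 1 at 24 h (1 without air replicate 3 or O3 24 h replicate 2), 8 to 14 at 48 h (8 without O3 48 h replicate 2) and 10 to 12 at 72 h (10 without air replicate 3 or O3 72 h replicate 3). In Tnfr+/+ lungs it gave 0 to 0, 3 to 4 (3 without air replicate 1 or O3 48 h replicate 3) and 5 to 8 (5 without air replicate 3). The Tnfr-/- step to 48 h gave 0 to 3 (0 without O3 48 h replicate 2) and the Tnfr+/+ step 1 to 2. Between genotypes at 72 h it gave 0 to 1 (1 without Tnfr+/+ O3 72 h replicate 3). No result changed direction. Each call of a single member was refitted without each of the arrays compared in turn. The call was kept in 650 of these refits and lost in 130. Under the other alternatives it was kept in 836 and lost in 121. These are counts of refits and not of members, and many calls within a genotype were lost in at least 1 refit. Low signal limits Pole, Cdc6, Gins1 and Tyms.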
